A study of Mus musculus with 20 samples.

Results

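The transporters that carry amino acids and amine neurotransmitters across the membranes of uterine cells were examined in mice with and without RU486-induced implantation failure (IF). They were taken by gene symbol from the expression table: every member of the families Slc1a, Slc6a, Slc7a, Slc36a and Slc38a, with the heavy chains Slc3a1 and Slc3a2. This gave 58 of the 45777 genes listed, all of which were matched to an NCBI gene on the GRCm38.p6 assembly.

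Uteri of wild-type B6D2F1 females, mated at 8 to 12 weeks of age, were collected at 18:00 on day 3.5, and RNA of 1 horn per mouse was sequenced, with 5 mice in each of 4 groups and 20 libraries in all. Control mice were untreated, and mice of the other groups received 3 mg/kg of RU486, an antagonist of the progesterone and glucocorticoid receptors, under the skin on the morning of day 3.5. The IF group received nothing else. On day 1.5 the PBMC group received 50000 peripheral blood mononuclear cells (PBMCs) per uterine horn, and the PBMC-hCG group received the same number of PBMCs cultured with 5 IU/mL of human chorionic gonadotropin (hCG), a pregnancy hormone. Control mice had no stated vehicle injection and IF mice no intrauterine injection, so the PBMCs cannot be told apart from the procedure and medium that came with them. Mice given medium without cells were not analysed here. The donor cells came from non-pregnant mice of the same cross, so their transcripts are counted with those of the host. Values are TPM, abundances scaled to a fixed total per library that allow for transcript length. The number of reads behind them is unknown. In whole uterus, fewer cells of a type and less RNA per cell cannot be told apart.

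Amino acids enter cells through carriers that differ in what they carry and in the ion gradient they use. Carriers of the SLC1, SLC6 and SLC38 families draw on sodium, and those of SLC36 on protons. Many SLC7 proteins are light chains that reach the membrane only when bound to a heavy chain, Slc3a2 or Slc3a1, and exchange one amino acid for another. Several SLC6 members also clear neurotransmitters (GABA, glycine, norepinephrine, serotonin) or bring in osmolytes such as taurine and betaine.

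Of the 58 transporters, 38 were above 0 TPM in all 20 libraries and were tested with limma on log2(TPM + 0.1). A difference was called at a Benjamini-Hochberg adjusted p-value under 0.05 over the 18706 genes tested. The other 20 were left out because they were listed at 0 in at least 1 library: Slc6a18, Slc6a21 and Slc7a12 at 0 in all libraries and 17 at 0 in 2 to 19 of them. Of these 20, 18 had a mean under 0.2 TPM, and the highest mean, 0.594 TPM, was that of Slc6a12. The filter also drops a gene that is at 0 in 1 group and present in another, so counts over the 38 do not speak for all members.

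Levels per length spanned a wide range. Among the 38 transporters, 21 had a mean of at least 10 TPM over the 20 mice, 12 had 1 to 10 TPM and 5 had less. The highest was the glutamine and neutral amino acid carrier Slc1a5, with a mean of 190.5 TPM. It was followed by the heavy chain Slc3a2 (133.2 TPM), the taurine carrier Slc6a6 (112 TPM), the neutral amino acid carrier Slc38a2 (100.3 TPM), the glutamate carrier Slc1a1 (84.85 TPM), the light chain Slc7a8 (68.12 TPM), Slc38a10 (65.15 TPM) and the light chain Slc7a5 (45.31 TPM). These 8 genes made up 70.9% of the summed TPM of all 58 transporters in the control group and 72.4% in the IF group. The sum over the 58 transporters was 1046 ± 71.07 TPM (SD, n = 5) in control, 1186 ± 38.39 in IF, 1127 ± 47.27 in PBMC and 1097 ± 62.42 in PBMC-hCG mice. Most of the difference between the IF and control means came from the light and heavy chains, which summed to 244 ± 38.96 TPM in control and 368.4 ± 67.82 TPM in IF mice (SD, n = 5).

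**Figure D1:**
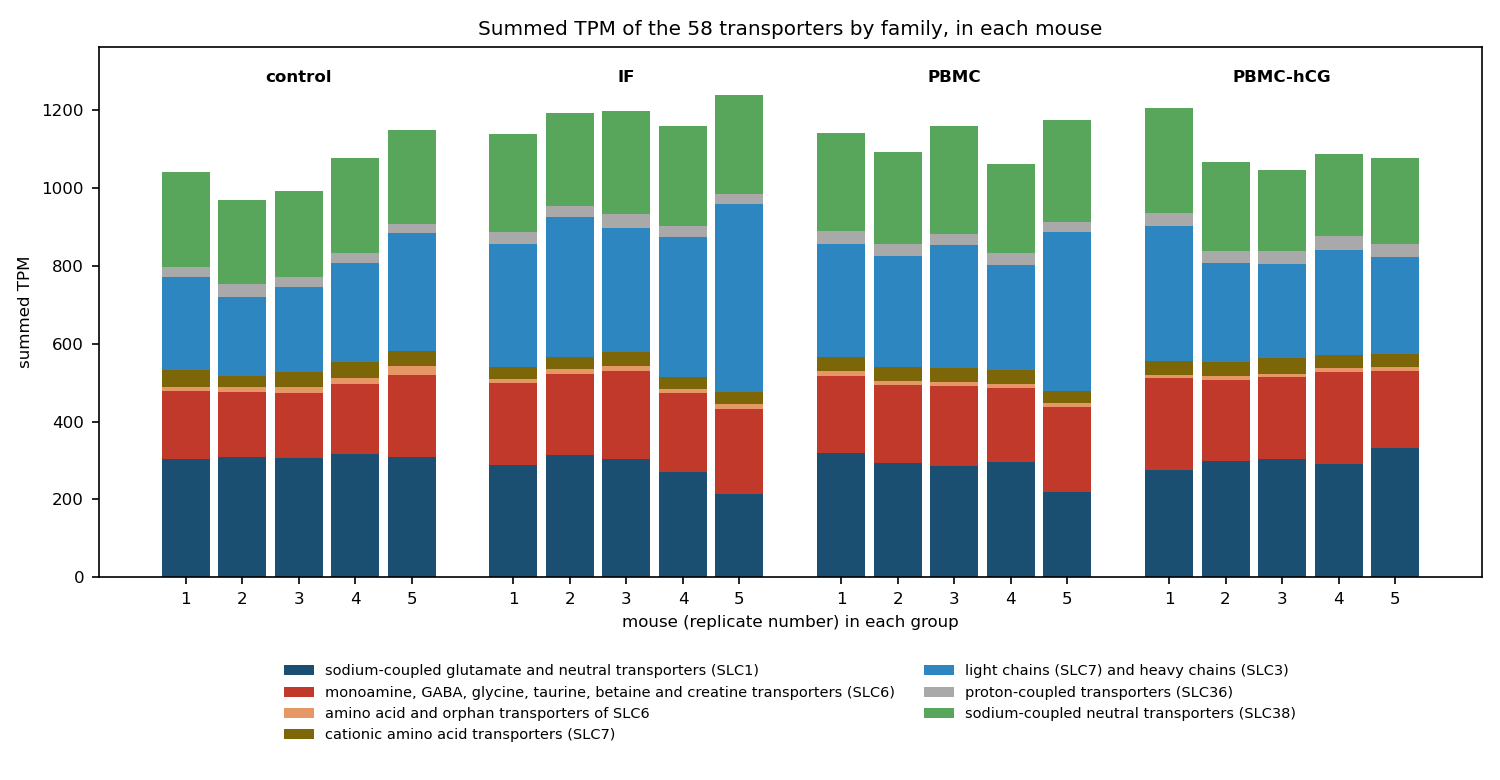
Stacked bars give the summed TPM of the 58 transporters in each of the 20 mice (x axis, replicate number within a group), coloured by family. The blue block, light and heavy chains, spans 202.3 to 303.8 TPM in control and 317.2 to 483.8 TPM in IF mice, while the SLC38 block spans 216.3 to 245 and 237.6 to 266.3 TPM.

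PBMC-hCG mouse 1 was the only mouse of its group within the IF range for Slc7a5, Slc3a2, Slc7a8 and Slc38a2, and PBMC mouse 5 was the highest of its group for the first 3 of these. For these genes, some of the differences that either mouse moved are given with and without it. Control mouse 2 and IF mouse 3 were each the highest of their group for Slc6a15, Slc7a4 and Slc1a3, but not for Slc6a17.

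In IF against control mice, 10 of the 38 transporters (26.3%) passed the adjusted threshold, against 21.9% of all genes tested, so the share was close to the background. Higher in IF were Slc6a13, Slc7a8, Slc7a5, Slc7a7, Slc3a2 and Slc6a6, and lower were Slc6a15, Slc1a3, Slc7a4 and Slc6a17. By direction, 15.8% of transporters against 13.4% of genes were higher and 10.5% against 8.53% were lower. Between the PBMC and IF groups no transporter passed, as no gene did (0%). At an unadjusted p-value under 0.05, 4 transporters (10.5%) differed, against 6.79% of genes. In PBMC-hCG against IF mice, 7 transporters (18.4%) passed, against 13.6% of genes. Slc1a2, Slc1a6, Slc6a6 and Slc7a2 were higher (10.5%, against 7.61% of genes), and Slc7a5, Slc38a2 and Slc6a8 were lower (7.89%, against 5.99%). This count depended on single mice. It was 0 without IF mouse 2, 4 or 5 and without PBMC-hCG mouse 2, 3, 4 or 5, and it was 14 without IF mouse 3 and 12 without PBMC-hCG mouse 1. The number of genes called over the whole table moved with it, from 2544 to between 0 and 34 without any of the former and to 5061 and 4166 without the latter. Between the PBMC-hCG and PBMC groups no transporter passed the adjusted threshold, against 0.0107% of genes, and 4 had an unadjusted p-value under 0.05 (10.5%, against 16.2% of genes). Between the PBMC-hCG and control groups 10 transporters (26.3%) passed, against 31.8% of genes, of which 18.4% against 20.2% were higher and 7.89% against 11.6% lower. Without control mouse 2 the count was 16, and 40.2% of genes were called. The 3 comparisons with IF share the 5 IF mice, and both comparisons with control share the 5 control mice, so the values of a gene in them are not independent.

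By a fold change of 2 or more together with an unadjusted p-value under 0.05, transporters were again few. In IF against control mice 2 met it, Slc6a13 and Slc6a15 (5.26%, against 4.03% of genes), and none did in PBMC against IF (against 0.438%). Slc1a6 alone met it in PBMC-hCG against IF (2.63%, against 2.31%) and against PBMC (2.63%, against 0.893%), and 3 met it against control, Slc1a6, Slc6a13 and Slc6a17 (7.89%, against 4.74%). Transporters whose groups did not overlap numbered 5 in IF against control (13.2%, against 12.8% of genes), 1 in PBMC against IF (2.63%, against 1.01%), 3 in PBMC-hCG against IF (7.89%, against 7.24%), 3 against PBMC (7.89%, against 3.46%) and 6 against control (15.8%, against 18.3%).

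**Figure D2:**
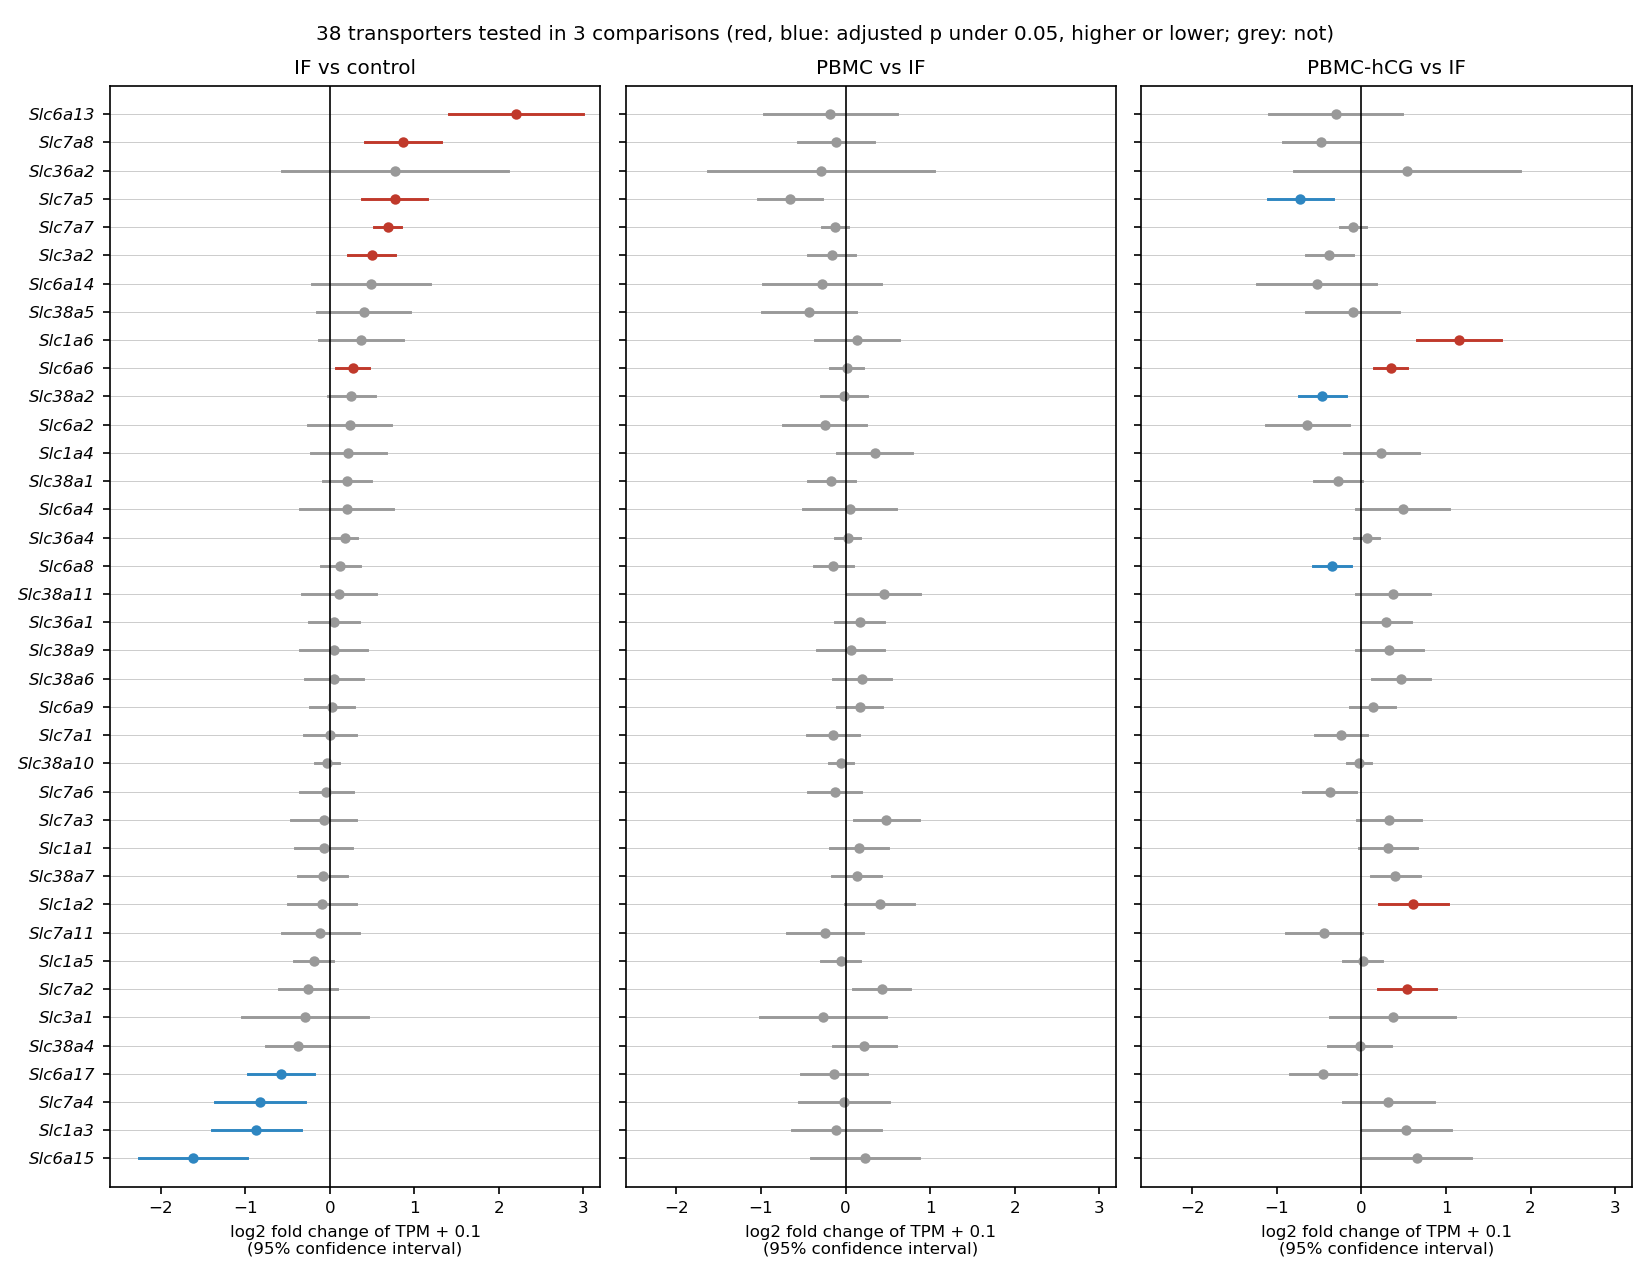
Log2 fold changes of TPM + 0.1 with 95% confidence intervals (x axis) for the 38 transporters tested, in the order of IF against control. Red and blue mark adjusted p-values under 0.05 (higher and lower): 6 and 4 transporters for IF against control, none for PBMC against IF, and 4 and 3 for PBMC-hCG against IF.

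Among carriers of GABA and osmolytes, Slc6a13 showed the largest rise of the tested transporters in the IF group. Slc6a13 encodes a GABA carrier that also takes up betaine and taurine, and lies on chromosome 6 (GRCm38.p6, chr6:121300288-121337721, + strand). Its TPM values were 0.8463, 1.296, 0.7539, 0.3285 and 0.1746 in control mice 1 to 5 and 3.692, 2.998, 2.736, 4.28 and 1.742 in IF mice 1 to 5. They were 3.332, 3.121, 2.18, 1.795 and 2.916 in PBMC mice and 4.44, 2.69, 2.107, 1.396 and 2.133 in PBMC-hCG mice. Every RU486-treated mouse was above every control mouse, and the 3 treated groups overlapped. IF exceeded control by 2.20 ± 0.376 on the log2 scale (SE; limma, adjusted p = 0.000358), and PBMC-hCG exceeded control by 1.89 ± 0.376 (adjusted p = 0.00103). Against IF, the differences of the PBMC and PBMC-hCG groups were -0.18 and -0.31 on the log2 scale, with adjusted p-values of 0.94 and 0.591.

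The next protein-coding gene downstream is another member, Slc6a12, a betaine and GABA carrier (chr6:121342574-121365773, + strand), which starts 4852 bases after the end of Slc6a13. It was listed at 0 TPM in control mice 3 and 4, and at 0.1707, 0.1299 and 0.1663 TPM in control mice 1, 2 and 5. In IF mice 1 to 5 it was at 0.7626, 0.6751, 1.058, 0.6673 and 0.7699 TPM. The PBMC mice spanned 0.5391 to 0.9923 TPM and the PBMC-hCG mice 0.5353 to 0.8724 TPM, so that again no treated mouse overlapped the control group. When genes above 0 TPM in at least 1 library were tested, the adjusted p-value of IF against control was 3.01e-05. Both genes were low, and the fitted fold of such a gene depends on the pseudocount.

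The 250 bases before the annotated starts of these neighbours, which differed in the same direction, are shown from RefSeq windows on GRCm38.p6 (+ strand, chr6:121300038-121300287 and chr6:121342324-121342573). Capitals mark the letters TGANTCA (N, any base), searched as a loose form of the motif of AP-1 transcription factors. Binding was not tested.
Slc6a13: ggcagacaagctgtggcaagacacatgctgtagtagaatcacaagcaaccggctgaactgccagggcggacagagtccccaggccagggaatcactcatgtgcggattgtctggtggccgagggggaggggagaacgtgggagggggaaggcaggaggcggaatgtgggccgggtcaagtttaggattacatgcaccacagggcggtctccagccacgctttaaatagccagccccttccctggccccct
Slc6a12: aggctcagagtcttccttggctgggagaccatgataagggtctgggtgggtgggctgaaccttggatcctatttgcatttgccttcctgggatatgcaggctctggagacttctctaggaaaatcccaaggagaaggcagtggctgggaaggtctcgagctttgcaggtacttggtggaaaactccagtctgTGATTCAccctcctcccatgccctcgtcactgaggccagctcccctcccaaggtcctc
The motif occurs once before Slc6a12, as TGATTCA, 58 bases ahead of its start, and not in the Slc6a13 stretch. Of the 58 members, 41 had windows, 61 in all, each from 250 bases before to 50 after a start. On either strand, 14.8% of these 61 windows held TGANTCA with any middle base, against 7.81% of all 32851 windows. They belonged to Slc38a10, Slc38a7, Slc3a1, Slc6a12, Slc6a14, Slc6a17, Slc6a5 and Slc7a1. Of those among the 38 tested transporters, only Slc6a17 was called between IF and control, and it was lower in IF. The palindromes of the estrogen receptor (GGTCA, 3 bases, TGACC) and of the progesterone and glucocorticoid receptors (GAACA, 3 bases, TGTTC) were in 0 of the 61 windows, and in 0.07% and 0.0578% of all windows. Members whose windows were not used here include Slc1a5, Slc36a2, Slc38a1, Slc38a3, Slc6a15, Slc6a18, Slc6a2, Slc6a6, Slc6a7, Slc6a8, Slc7a12, Slc7a13, Slc7a2, Slc7a3, Slc7a4 and Slc7a5.

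The taurine carrier Slc6a6 (chr6:91684048-91759063, + strand) was the third most abundant transporter. Its TPM values were 85.03, 95.34, 80.95, 91.19 and 98.32 in control mice, 110.7, 99.45, 144.1, 99.2 and 95.27 in IF mice, 107.8, 106.7, 111.3, 111 and 110.8 in PBMC mice, and 143.7, 132.4, 134.9, 160.6 and 121.3 in PBMC-hCG mice. All PBMC-hCG mice were above all control and all PBMC mice, and IF mouse 3 stood among them. PBMC-hCG exceeded control by 0.62 ± 0.094 on the log2 scale (SE; limma, adjusted p = 0.000102). Against IF the difference was 0.35 (adjusted p = 0.0322), a call lost in 9 of 19 alternatives (adjusted p up to 0.109), and against PBMC it was 0.33 (adjusted p = 0.264). The smaller difference of IF from control, 0.27 (adjusted p = 0.0465), lost its call in 10 of 19 alternatives, among them leaving out control mouse 1, 3 or 4 or IF mouse 1 or 3 (0.17 without IF mouse 3, adjusted p = 0.11).

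The creatine carrier Slc6a8 spanned 28.1 to 40.43 TPM in control, 31.28 to 41.16 in IF, 26.81 to 38.12 in PBMC and 24.41 to 33.07 in PBMC-hCG mice. It was lower in PBMC-hCG than in IF by 0.35 on the log2 scale (log2 fold change -0.35 ± 0.109, SE; limma, adjusted p = 0.0439), with the groups overlapping, and the call was lost in 9 of 19 alternatives. The norepinephrine carrier Slc6a2 had means of 42.04 ± 13.75, 48.84 ± 14.13, 40.38 ± 8.698 and 30.5 ± 5.548 TPM (SD, n = 5) in control, IF, PBMC and PBMC-hCG mice. With all mice no comparison passed the adjusted threshold (PBMC-hCG against IF, -0.64, limma, adjusted p = 0.0677). Without PBMC-hCG mouse 1 that difference from IF was -0.74 (limma, adjusted p = 0.041), which passed. The serotonin carrier Slc6a4 and the glycine carrier Slc6a9, with group means of 1.115 to 1.863 and 13.24 to 15.28 TPM, did not pass in any comparison. The dopamine carrier Slc6a3 and the GABA carrier Slc6a11 were listed at 0 in 15 or more of the 20 libraries.

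Of 8 amino acid and orphan carriers of SLC6, 3 were tested, of which Slc6a15 and Slc6a17 were lower in IF than in control, and Slc6a14 did not pass. Slc6a15 (chr10:103367808-103419379, + strand), a carrier of branched-chain amino acids and proline, had TPM values of 3.054, 5.792, 2.569, 3.323 and 1.861 in control mice and 1.151, 0.7094, 2.007, 0.887 and 0.4799 in IF mice. Only IF mouse 3 reached into the control range. The PBMC mice were at 0.7388 to 1.339 TPM and the PBMC-hCG mice at 1.259 to 2.199 TPM. The log2 fold change was -1.62 ± 0.303 for IF against control (SE; limma, adjusted p = 0.000816). It was -0.96 for PBMC-hCG against control (adjusted p = 0.0219), which became -0.74 (adjusted p = 0.0505) without control mouse 2. Slc6a17, a vesicular carrier of neutral amino acids known from neurons, was at 4.212, 4.266, 5.873, 5.378 and 7.363 TPM in control mice, at 3.291, 3.037, 3.766, 3.831 and 3.766 in IF mice, and at 2.87, 2.984, 2.16, 2.736 and 2.108 in PBMC-hCG mice. These 3 groups did not overlap one another, and the PBMC mice (2.376 to 4.861 TPM) overlapped all of them. PBMC-hCG was lower than control by 1.03 (log2 fold change -1.03 ± 0.187, SE; limma, adjusted p = 0.000468) and IF by 0.58 (log2 fold change -0.58, adjusted p = 0.0331). The latter call was lost without control mouse 3, 4 or 5 or IF mouse 1 or 2, where its adjusted p-values were 0.0614 to 0.09. Slc6a14, a broad carrier of neutral and cationic amino acids with means of 4.966 to 7.183 TPM, did not pass in any comparison, and its log2 fold change between IF and control was 0.49 (adjusted p = 0.327).

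Nerve markers were measured beside these carriers. Of 7 markers of nerve and Schwann cells, 5 were above 0 TPM in all libraries and 1 was called higher in IF, where 13.4% of all genes were higher. This was the nerve growth factor receptor Ngfr, with 42.37 to 81.29 TPM in control and 175.3 to 359 TPM in IF mice. Ngfr was also called lower in PBMC-hCG (54.15 to 229.6 TPM) than in IF mice (log2 fold change -1.39, limma, adjusted p = 0.0287). Its part in the results for Slc6a15 and Slc6a17 was not tested.

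**Figure D3:**
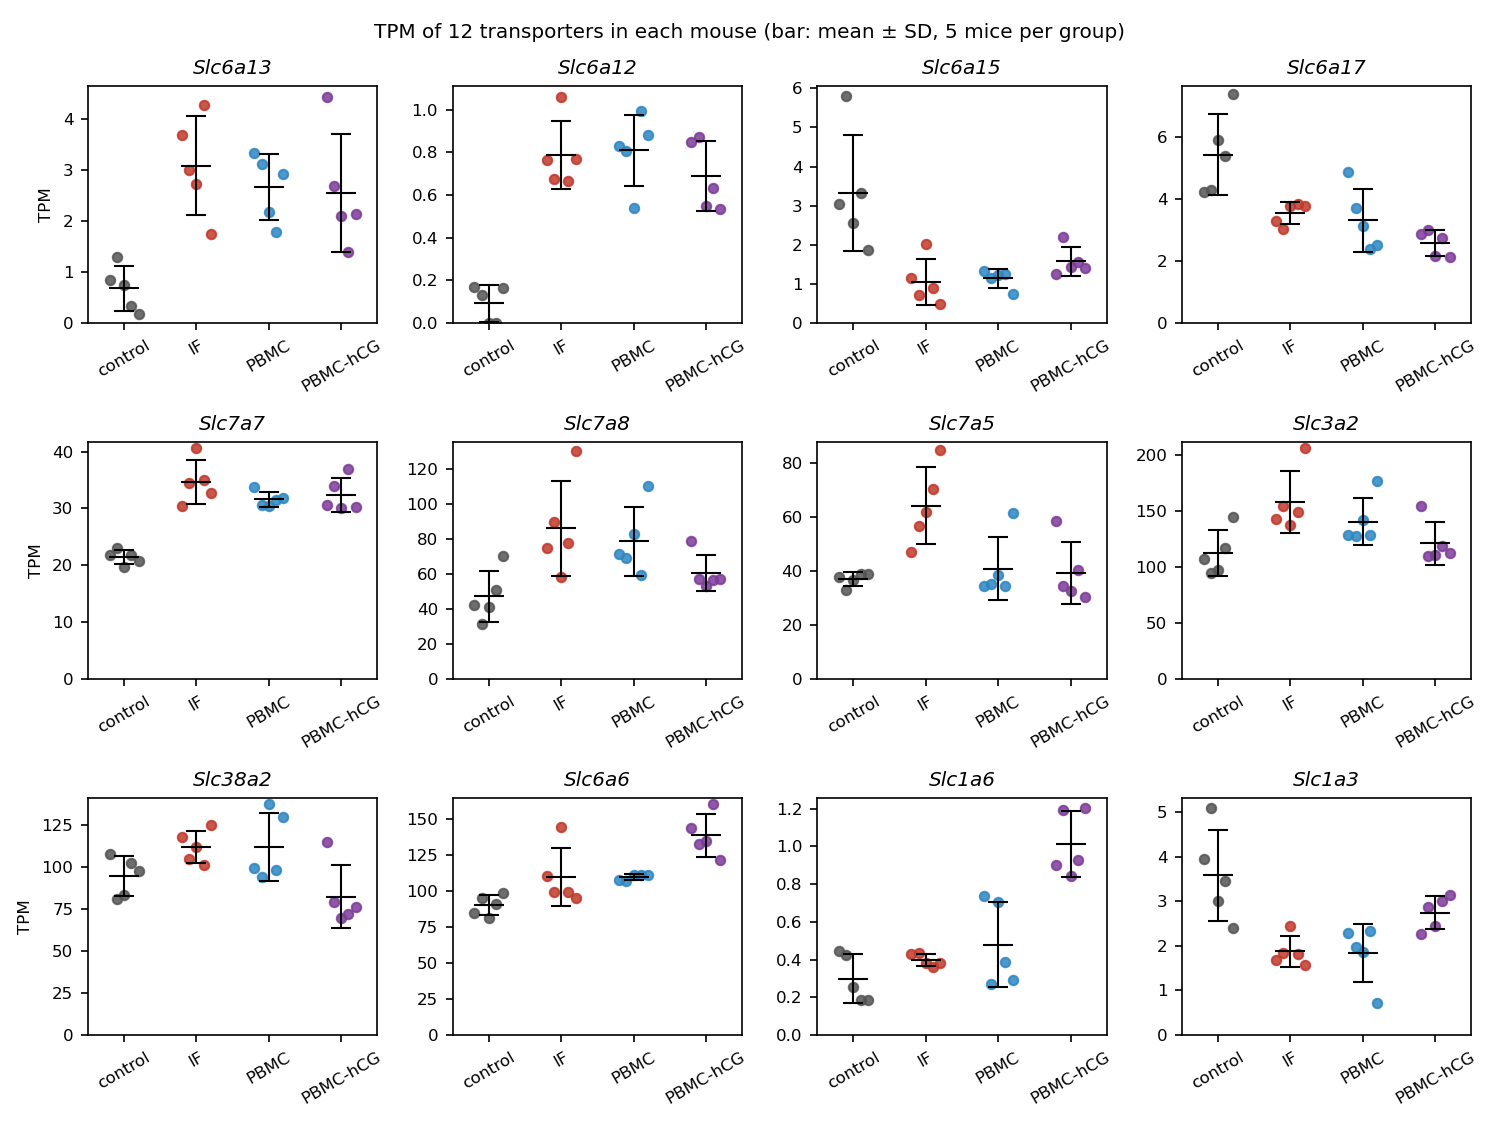
TPM (y axis, each panel from 0) of 12 transporters in every mouse, with the mean and SD of each group of 5. Slc6a13, Slc6a12 and Slc7a7 separate all 15 treated mice from the 5 control mice, Slc1a6 is highest in the 5 PBMC-hCG mice (0.8406 to 1.205 TPM), and PBMC mouse 5 and PBMC-hCG mouse 1 stand above their groups for Slc7a5 and Slc3a2.

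The light chains of the SLC7 family and their heavy chain Slc3a2 formed the group with the most calls between IF and control. Of 12 light and heavy chains 7 were tested, 4 of them were higher and none lower, where 13.4% of all genes were higher and 8.53% lower, and their median log2 fold change was 0.50 against 0.02 over all genes. Slc3a2 (chr19:8706882-8723369, - strand) encodes the heavy chain that carries most of these light chains to the membrane. Its TPM values were 107.2, 94.73, 97.11, 117.4 and 145.1 in control mice, 143.1, 154.8, 137.9, 149.4 and 206.1 in IF mice, 128.4, 127.6, 142, 128.3 and 177.1 in PBMC mice, and 154.9, 109.9, 110.6, 118.5 and 112.9 in PBMC-hCG mice. Control mouse 5 reached into the IF range, and PBMC-hCG mouse 1 stood apart from the other mice of its group. The log2 fold change of IF against control was 0.50 ± 0.133 (SE; limma, adjusted p = 0.0114), and that of PBMC-hCG against IF was -0.38 (adjusted p = 0.0595), or -0.47 without PBMC-hCG mouse 1 (adjusted p = 0.0204).

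Slc7a5 (chr8:121881146-121907686, - strand) is the light chain for large neutral amino acids such as leucine and tryptophan. Its TPM values were 37.83, 32.81, 36.68, 38.87 and 38.84 in control mice and 46.91, 56.72, 61.9, 70.37 and 84.87 in IF mice. They were 34.58, 35.25, 38.62, 34.44 and 61.26 in PBMC mice and 58.46, 34.47, 32.7, 40.21 and 30.42 in PBMC-hCG mice. All IF mice were above all control mice, while PBMC mouse 5 and PBMC-hCG mouse 1 lay within the IF range and the other 8 mice of those groups below it. The difference of IF from control was 0.77 ± 0.182 on the log2 scale (SE; limma, adjusted p = 0.00523). That of PBMC-hCG from IF was -0.72 (adjusted p = 0.029) and that of PBMC from IF was -0.66, which did not pass (adjusted p = 0.623). The call between PBMC-hCG and IF was lost in 7 of 19 alternatives (adjusted p up to 0.0999), each of them without 1 mouse. With PBMC-hCG mouse 1 left out the difference was -0.87 (adjusted p = 0.00637), and with PBMC mouse 5 left out that of PBMC from IF was -0.82 (adjusted p = 0.123). PBMC-hCG and control differed by 0.05 (95% confidence interval -0.34 to 0.43, adjusted p = 0.874), which turned to -0.11 (-0.46 to 0.24, adjusted p = 0.658) without PBMC-hCG mouse 1. A gene model on the opposite strand, Gm20388, covers 26545 bases of this locus in the GENCODE annotation. The libraries were stranded, but whether strand was used in quantification is not given in the sources used here.

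Slc7a8 (chr14:54722215-54781886, - strand), a light chain for small and large neutral amino acids, was at 42.48, 31.17, 41.25, 50.64 and 70.28 TPM in control mice and 74.67, 89.54, 58.39, 77.77 and 130.4 TPM in IF mice. The PBMC mice were at 59.41 to 110.5 TPM, and the PBMC-hCG mice at 78.58, 56.84, 53.15, 56.63 and 57.25 TPM. Control mouse 5 was above IF mouse 3, and otherwise control and IF were separate. Slc7a8 was higher in IF than in control by 0.87 ± 0.214 on the log2 scale (SE; limma, adjusted p = 0.00675), and its difference between PBMC-hCG and IF was -0.47 (adjusted p = 0.126), or -0.57 without PBMC-hCG mouse 1 (adjusted p = 0.0713).

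Slc7a7 (chr14:54369442-54420068, - strand), the light chain that exports cationic amino acids in exchange for neutral ones, gave the smallest p-value of all the transporters. Its TPM values were 21.83, 23.09, 19.71, 21.86 and 20.72 in control mice, 30.35, 34.41, 40.65, 35.06 and 32.74 in IF mice, 33.71, 30.67, 30.44, 31.5 and 31.87 in PBMC mice, and 30.56, 33.97, 30.13, 36.88 and 30.19 in PBMC-hCG mice. No treated mouse overlapped the control group, and the treated groups overlapped one another. Its log2 fold change was 0.69 ± 0.0742 for IF against control (SE; limma, adjusted p = 3.29e-06) and 0.59 ± 0.0742 for PBMC-hCG against control (adjusted p = 1.84e-05). Against IF, PBMC and PBMC-hCG differed by -0.13 and -0.10 (adjusted p = 0.768 and 0.364).

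Slc7a6, the other light chain of this exchange, was at 24.51 ± 4.374 TPM in control and 23.67 ± 3.078 TPM in IF mice (SD, n = 5; log2 fold change -0.04, 95% confidence interval -0.36 to 0.28). In PBMC-hCG mice it was at 18.34 ± 3.565 TPM, lower than control by 0.42 (log2 fold change -0.42 ± 0.151, SE; limma, adjusted p = 0.0427), a call that was lost without control mouse 1, 3, 4 or 5 or PBMC-hCG mouse 2, 3, 4 or 5 (adjusted p = 0.0637 to 0.11). Without PBMC-hCG mouse 1 it was -0.52 (adjusted p = 0.0115). The difference of PBMC-hCG from IF was -0.38 (limma, adjusted p = 0.0898), or -0.48 without that mouse (limma, adjusted p = 0.0288), which passed. Slc7a11, the cystine and glutamate exchanger, had group means of 0.5418 to 0.8434 TPM, and Slc3a1, the heavy chain of kidney and gut, of 0.255 to 0.4354 TPM. Neither passed in any comparison. Slc7a9, the light chain that pairs with Slc3a1, was listed at 0 in 15 of 20 libraries.

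Set against the heavy chain in the same mouse, the TPM ratio of Slc7a6 to Slc3a2 was 0.183 to 0.261 in control and 0.133 to 0.17 in IF mice, and did not overlap. This ratio was 0.126 to 0.17 in PBMC and 0.138 to 0.164 in PBMC-hCG mice. Between IF and control, the log2 fold change of Slc7a6 itself was -0.04 and that of Slc3a2 was 0.50, so the ratio mostly restates the rise of Slc3a2. The ratio of Slc7a5 to Slc3a2 was 0.268 to 0.378 in control, 0.328 to 0.471 in IF, 0.268 to 0.346 in PBMC and 0.27 to 0.377 in PBMC-hCG mice. That of Slc7a8 was 0.329 to 0.484 in control and 0.424 to 0.633 in IF mice. These ratios are of transcripts and are given without a test.

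**Figure D4:**
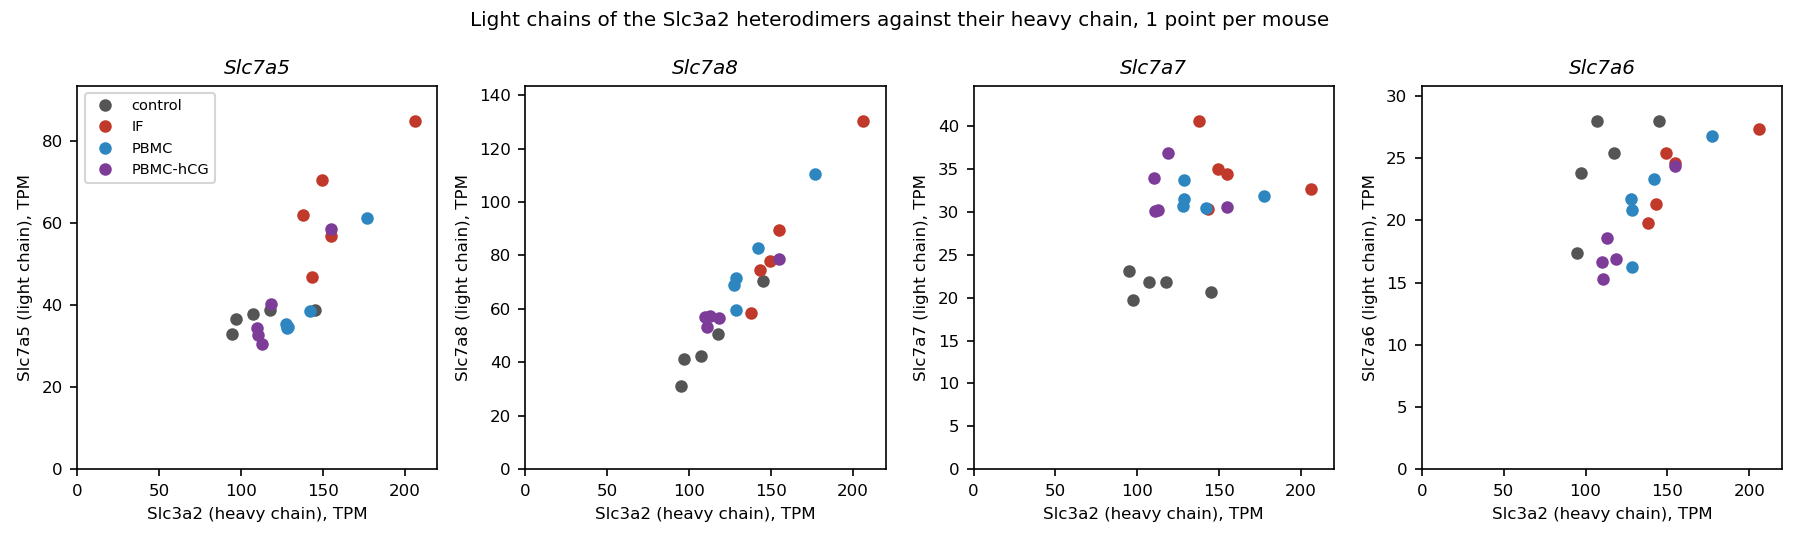
TPM of 4 light chains (y axes, from 0) against TPM of the heavy chain Slc3a2 (x axis), 1 point per mouse, coloured by group. Slc7a8 lies near a single line over all 20 mice, Slc7a7 sits in a lower band in control (19.71 to 23.09 TPM) than in treated mice (30.13 to 40.65 TPM), and IF mouse 5 is highest for Slc3a2 (206.1 TPM).

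Among cationic amino acid carriers, which are single proteins, Slc7a2, the arginine carrier linked to nitric oxide and arginase pathways, was at 13.69, 13.25, 11.58, 13.26 and 9.27 TPM in IF mice and at 15.47, 17.98, 20.19, 16.42 and 18.28 TPM in PBMC-hCG mice. The PBMC mice were at 17.71, 17.69, 16.41, 17.25 and 12.96 TPM. All PBMC-hCG mice and all PBMC mice but mouse 5 were above the IF group, and the control mice (8.958 to 18.13 TPM) overlapped every group. PBMC-hCG exceeded IF by 0.54 ± 0.162 on the log2 scale (SE; limma, adjusted p = 0.0407), a call lost in 8 of 19 alternatives (adjusted p up to 0.133). PBMC exceeded IF by 0.43, which did not pass (limma, adjusted p = 0.701), or by 0.51 without PBMC mouse 5 (adjusted p = 0.228). Slc7a4, an orphan relative of these carriers, was at 7.623, 10.55, 6.865, 7.605 and 5.486 TPM in control mice and at 4.269, 3.464, 7.497, 3.26 and 3.399 TPM in IF mice. IF mouse 3 lay within the control range and the other 4 below it. Its log2 fold change was -0.83 ± 0.255 (SE; limma, adjusted p = 0.025), and the call was lost without control mouse 2 or IF mouse 2, 4 or 5 (adjusted p = 0.054 to 0.0624). Slc7a4 overlaps P2rx6 on the opposite strand over 5783 bases. Slc7a1, the widely expressed arginine and lysine carrier, did not pass in any comparison (group means 12.27 to 14.62 TPM). Slc7a3 was below 1 TPM on average, and its PBMC mice (0.5673 to 1.025 TPM) were all above its IF mice (0.3642 to 0.5626 TPM) (limma, adjusted p = 0.701).

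Of the SLC1 family, Slc1a6 (chr10:78780086-78814825, + strand), a glutamate carrier best known from Purkinje cells of the cerebellum, had the largest fold change between PBMC-hCG and IF. It was at 0.4281, 0.4324, 0.383, 0.3579 and 0.3816 TPM in IF mice, at 0.7363, 0.2724, 0.7036, 0.3869 and 0.2918 TPM in PBMC mice, and at 0.8995, 1.194, 0.8406, 0.9273 and 1.205 TPM in PBMC-hCG mice. Control mice were at 0.1838 to 0.4472 TPM. Every PBMC-hCG mouse was above every mouse of the other 3 groups. The log2 fold change of PBMC-hCG was 1.15 ± 0.237 against IF (SE; limma, adjusted p = 0.0258) and 1.52 against control (adjusted p = 0.00012). The call against IF was lost in 7 of 18 alternatives (adjusted p up to 0.0919). Against PBMC it was 1.02, which did not pass (adjusted p = 0.264). The level was low, and with a pseudocount of 1 the difference from IF was 0.52. Slc1a2, another glutamate carrier, was lower still (group means 0.1051 to 0.2172 TPM), with PBMC-hCG above IF by 0.62 on the log2 scale (limma, adjusted p = 0.0443) and overlapping groups, a call lost in 12 of 18 alternatives.

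Slc1a3, the glutamate and aspartate carrier of glia, was at 3.948, 5.101, 3.011, 3.459 and 2.399 TPM in control mice and at 1.693, 1.845, 2.456, 1.828 and 1.565 TPM in IF mice. Control mouse 5 and IF mouse 3 were the mice that overlapped. Its log2 fold change was -0.87 ± 0.251 (SE; limma, adjusted p = 0.0177). PBMC mice were at 0.7255 to 2.343 TPM and PBMC-hCG mice at 2.27 to 3.14 TPM, and the differences of PBMC-hCG from IF (0.53, adjusted p = 0.139) and from PBMC (0.64, adjusted p = 0.283) did not pass. The most abundant transporters of the family did not pass in any comparison. Slc1a5 was at 210.5 ± 22.04, 186 ± 29.92, 178.6 ± 24.64 and 186.7 ± 12.99 TPM (SD, n = 5) in control, IF, PBMC and PBMC-hCG mice, and the interval of its log2 difference between IF and control was -0.42 to 0.04. Slc1a1 was at 82.26 ± 21.95, 76.83 ± 13.31, 85.42 ± 12.13 and 94.89 ± 8.261 TPM, with an interval of -0.42 to 0.27.

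Of 11 SLC38 carriers 9 were tested, and none was called between IF and control by limma, with Slc38a4 alone at an unadjusted p-value under 0.05. Slc38a2 (chr15:96687392-96699728, - strand), a sodium-coupled carrier of glutamine and alanine that cells induce when amino acids are scarce, was at 117.9, 104.8, 111.9, 101.5 and 124.9 TPM in IF mice and at 115, 79.51, 69.6, 72.18 and 76.45 TPM in PBMC-hCG mice. PBMC-hCG mouse 1 lay within the IF range and the other 4 below it. Control mice were at 80.83 to 108.1 TPM and PBMC mice at 93.92 to 137.6 TPM. PBMC-hCG was lower than IF (log2 fold change -0.46 ± 0.133, SE; limma, adjusted p = 0.0358). This call was lost in 9 of 19 alternatives (adjusted p up to 0.115), and without PBMC-hCG mouse 1 the value was -0.59 (adjusted p = 0.00669). Its difference from PBMC was -0.44 (adjusted p = 0.266), or -0.57 without that mouse (adjusted p = 0.0703). That of PBMC-hCG from control was -0.21 (limma, adjusted p = 0.239), or -0.34 without that mouse (limma, adjusted p = 0.0304), which passed. Slc38a10, with group means of 63.19 to 67.43 TPM, did not pass in any comparison. Slc38a11 was at 2.73 ± 0.599 TPM in IF and 3.748 ± 0.7363 TPM in PBMC mice (SD, n = 5; limma, adjusted p = 0.724). Slc38a6 was higher in PBMC-hCG (13.46 to 15.98 TPM) than in control (8.197 to 14.08 TPM) by 0.51 on the log2 scale (limma, adjusted p = 0.0233), a call lost without control mouse 5 or PBMC-hCG mouse 2 or 4 (adjusted p = 0.0506 to 0.0711). Of the SLC36 carriers, Slc36a4 was at 11.03 to 14.79 TPM in control and 15.91 to 16.51 TPM in PBMC-hCG mice, without overlap (log2 fold change 0.24, limma, adjusted p = 0.0138). Slc38a9, the lysosomal arginine sensor, did not pass in any comparison (group means 5.07 to 6.356 TPM).

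Other genes of amino acid handling were listed for comparison. Of 24 genes of the amino acid response, through which the transcription factor ATF4 raises amino acid import and synthesis, 7 were higher and 4 lower in IF than in control, where 13.4% of all genes were higher and 8.53% lower. Atf4 itself was at 162.6 TPM in control and 221.7 TPM in IF mice on average (log2 fold change 0.44, limma, adjusted p = 0.0282), and its partner Cebpb at 30.9 and 113.1 TPM (1.89, adjusted p = 0.00038). Trib3, Chac1, Nupr1, Atf5 and Ddit4 were the others that rose. The 4 that fell are enzymes: Phgdh, of serine synthesis (from 55.68 to 10.6 TPM, adjusted p = 9.13e-06), Cth, of cysteine synthesis (from 19.6 to 3.564 TPM, adjusted p = 5.96e-07), Shmt2 and Aldh18a1. Between PBMC-hCG and IF, Atf4, Cebpb, Nupr1 and Atf5 were lower (limma, adjusted p = 0.0287, 0.0258, 0.0347 and 0.0455) and Gpt2 was higher. In that comparison 5.99% of all genes were lower and 7.61% higher, and the calls over the whole table depended on single mice. The median log2 fold changes of the 24 genes were 0.06 for IF against control and -0.17 for PBMC-hCG against IF, against 0.02 and 0.05 over all genes.

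The letters of the site that ATF4 and C/EBP proteins share, TGATGCAA, were in 4 of the 61 transporter windows (6.56%), belonging to Slc7a11, Slc1a4 and Slc7a7, against 0.895% of all windows. Both windows of Slc7a7 hold the same site. It is shown because Slc7a7 was called higher in IF, while Slc7a11 and Slc1a4 were not (adjusted p = 0.77 and 0.51). The stretch runs from 250 bases before to 20 bases after an annotated start (RefSeq, GRCm38.p6, chr14:54417925-54418194, - strand), and capitals mark the motif. This start lies inside the gene, whose span on the - strand begins at 54420068. The motif begins at base -1 from this start and runs past it, and at base -243 from the start of the other window.
Slc7a7: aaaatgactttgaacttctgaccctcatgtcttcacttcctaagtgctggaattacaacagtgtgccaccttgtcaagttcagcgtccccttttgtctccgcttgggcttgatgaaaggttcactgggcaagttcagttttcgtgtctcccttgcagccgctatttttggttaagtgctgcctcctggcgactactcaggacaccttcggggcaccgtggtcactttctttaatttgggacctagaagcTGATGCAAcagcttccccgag

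Of 15 tested carriers from other families, 4 were higher in IF than in control and none lower (13.4% and 8.53% of all genes). Among them were the organic cation and monoamine carrier Slc22a3 (from 3.486 to 9.845 TPM, log2 fold change 1.50, limma, adjusted p = 1.3e-05), the aromatic amino acid carrier Slc16a10 and the neutral amino acid carrier Slc43a2. Of 28 tested genes of neurotransmitter and amino acid metabolism, 1 was higher, Arg1, and 10 were lower in IF, against the same shares of all genes. Among the latter were the monoamine oxidase Maob (from 208.9 to 91.95 TPM, adjusted p = 0.00998), the creatine synthesis enzymes Gatm and Gamt (adjusted p = 0.0132 and 0.00108) and Cdo1, an enzyme on the way from cysteine to taurine (from 35.17 to 14.96 TPM, adjusted p = 2e-04). Their median log2 fold change was -0.30. Of 23 genes of amino acid sensing upstream of mTORC1, Castor2 was higher in IF (from 4.154 to 7.506 TPM, limma, adjusted p = 4.12e-05) and 4 were lower (Rragd, Rragb, Lamtor2 and Lamtor4). The shares of all genes there were 13.4% and 8.53%. Between PBMC-hCG and IF, 6 of these 23 were higher, among them Sesn1 and Sesn3 of the sestrin family, and 2 lower. Of all genes, 7.61% were higher and 5.99% lower. Calls between PBMC-hCG and IF depended on single mice over the whole table, as given above.

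Cell type markers were measured in the same fits. All 5 endothelial markers were higher in IF than in control, and their summed level was 315.9 to 424.7 TPM in control and 472.5 to 510.3 TPM in IF mice. Epithelial markers were higher for 5 and lower for 2 of 10, stromal markers higher for 3 and lower for 1 of 9, and myeloid markers higher for 3 of 7. Over all genes tested, 13.4% were higher and 8.53% lower in IF than in control. Myometrial markers were lower for 5 of 8 in PBMC-hCG than in control mice (summed level 5037 to 6347 and 6199 to 11460 TPM), with control mice spread the widest. The share of all genes lower there was 11.6%. Between PBMC-hCG and IF mice, the epithelial marker Krt8, the stromal marker Pdgfra and the endothelial marker Emcn were higher (log2 fold changes 0.45, 0.40 and 0.29, limma, adjusted p = 0.0392, 0.0403 and 0.0287). The red cell markers Hbb-bs and Hba-a2 were lower there (-1.04 and -1.08, limma, adjusted p = 0.0493 and 0.0489). The summed level of 5 red cell markers was 640 to 1802 TPM in IF and 341.7 to 878.4 TPM in PBMC-hCG mice. For PBMC-hCG against IF, 7.61% of all genes were higher and 5.99% lower. No marker of T, B and NK cells passed between PBMC and IF mice, nor did any other marker listed. The part of these markers in the transporter results was not tested.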

How the data were processed

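RNA of 20 uteri was measured by RNA-seq. The labels gave each mouse its group and replicate number. The authors prepared stranded mRNA libraries, used Trimmomatic for trimming, HISAT2 for mapping to mm10 and StringTie for transcript assembly, and deposited TPM values per gene. Totals per library were 999988 to 999999, so depth is unknown and no counting error is given. No columns were identical, and correlations between libraries were 0.9494 to 0.9925.

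Genes with no library at 0 TPM (18706) were fitted as log2(TPM + 0.1) over all 4 groups using limma 3.58.1 (R 4.3.3; trended prior variance). Benjamini-Hochberg adjustment was applied in each of 5 comparisons separately. The test of the study needs counts and was not used. A second criterion was a fold change of at least 2 with a raw p-value under 0.05. The pseudocount draws fold changes of low genes toward 0. The fit was tested on simulated data. Nothing states that replicate numbers pair mice across groups, and each library is 1 mouse.

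Transporters and gene lists were chosen with earlier results of these data known. Transporters were named in full if they were among the 8 highest by mean TPM, the heavy or light chains of heterodimers, or the 4 largest rises or falls of a comparison with an adjusted p-value under 0.05 and a mean of at least 1 TPM in either group, with unadjusted p-values in use if no transporter passed. Other transporters were named after their values were seen. Positions and promoter windows are from RefSeq (GRCm38.p6), matched by NCBI gene identifier, and overlaps from GENCODE. Motifs were searched on both strands. Figures were drawn with matplotlib 3.10.9. Alternatives were other pseudocounts, filters, scalings, fold thresholds and fits, and each mouse left out in turn. A few genes of these lists are not reported here.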

Additional observations from a re-analysis of the deposited data

Results flagged for a closer look

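Of 84 groups of 5 mice examined over the named transporters, 10 held a mouse far from the others of its group by Dixon's gap criterion, which chance alone meets in about 1 in 20 groups. Some mice recurred. In PBMC-hCG mouse 1, Slc38a2 was at 115 TPM (others 69.6 to 79.51), Slc3a2 at 154.9 TPM (109.9 to 118.5) and Slc7a8 at 78.58 TPM (53.15 to 57.25). In PBMC mouse 5, Slc7a5 was at 61.26 TPM (34.44 to 38.62) and Slc7a2 at 12.96 TPM (16.41 to 17.71). In control mouse 2, Slc38a10 was at 54.21 TPM (67.84 to 72.71) and Slc3a1 at 0.9202 TPM (0.2262 to 0.3907). Slc3a2 was at 206.1 TPM in IF mouse 5 (137.9 to 154.8), Slc7a4 at 7.497 TPM in IF mouse 3 (3.26 to 4.269), and Slc1a5 at 209.4 TPM in PBMC-hCG mouse 5 (176.4 to 184.1).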

How the results depend on the processing

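Of 54 differences of transporters with an unadjusted p-value under 0.05, none changed direction under the alternatives run. Of their 1019 values under alternatives, 878 stayed on their side of the threshold, 110 lost a call and 31 gained one. Only differences called at first could lose a call. These were 10 in IF against control, 7 in PBMC-hCG against IF and 10 in PBMC-hCG against control. The share lost among their values was therefore larger than 110 of 1019. Smaller differences could change sign, as that of Slc7a5 between PBMC-hCG and control did without PBMC-hCG mouse 1. With each mouse left out in turn, the transporters with an adjusted p-value under 0.05 (limma) numbered 8 to 11 for IF against control, 0 to 0 for PBMC against IF, 0 to 14 for PBMC-hCG against IF, 0 to 0 for PBMC-hCG against PBMC and 7 to 16 for PBMC-hCG against control. Those meeting the criterion of 2-fold and unadjusted p-value numbered 2, 0, 1, 1 and 3 in these comparisons, and 2 to 3, 0 to 0, 1 to 1, 0 to 1 and 2 to 4 with a mouse left out (0 between PBMC-hCG and PBMC without PBMC mouse 2, 4 or 5 or PBMC-hCG mouse 2 or 5). A fold of at least 1.5 gave 7, 1, 5, 2 and 7. With genes above 0 TPM in at least 1 library, 2 passed adjustment between PBMC-hCG and IF in place of 7. With a pseudocount of 1, a filter of mean 1 TPM or quantile normalization, 0 met the fold criterion between PBMC-hCG and IF and between PBMC-hCG and PBMC. Equal medians gave 0 for the latter, and a pseudocount of 1 gave 1 between PBMC-hCG and control. Slc1a6 was the transporter concerned between PBMC-hCG and both IF and PBMC, and its mean lies under 1 TPM. Apart from that filter and the left-out mice, the cause was not tested. Same-numbered mice did not vary together (correlation of deviations -0.247 to 0.457, median -0.0097, over 30 pairs, against a median of 0.00883 over 120 pairs of other numbers). With the replicate number as a block, 8, 0, 9, 0 and 10 transporters passed adjustment. TPM carry no depth, so whether low transporters such as Slc1a2 and Slc6a12 differ beyond counting error is unknown.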
